A study of Gallus gallus with 12 samples.

Results

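Embigin (EMB), basigin (BSG) and neuroplastin (NPTN) form a small family of cell surface glycoproteins of the immunoglobulin superfamily. All 3 genes were found by their symbols in the table of 12470 named genes, and all 3 were tested. The family was chosen by the abundance of EMB, which is among the transcripts with the most reads in these follicles, so the level of EMB is given as a description with no test. The stated reason for that choice holds no difference between stages. The members and gene lists were nonetheless chosen with earlier results of these data known. Messenger RNA was sequenced from ovarian follicles of 6 hens (Gallus gallus), all 12 months old. A follicle not yet recruited into the growing hierarchy (Pre-recruitment) and a follicle at the F5 stage, one of the yolk-filled follicles of that hierarchy, came from each bird, so the 12 libraries are 6 pairs named by bird. No treatment or genetic change is given in the labels, and the tissue is labelled as follicle without separation into cell layers. Bulk tissue of this kind cannot tell fewer cells of a type from less RNA per cell, which holds for every difference given here.

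Each member spans the plasma membrane and carries immunoglobulin domains outside the cell. Basigin and embigin are known as escorts of monocarboxylate transporters, the SLC16 carriers of lactate and pyruvate, which need such a partner to reach the cell surface. In mammals, neuroplastin is an obligatory subunit of the plasma membrane calcium pumps, and basigin and neuroplastin each pair with the phospholipid scramblase XKR8. Basigin was described in chick as an antigen of brain endothelium, and in mice its loss leaves females infertile. The chicken embigin gene carries the older name ZOV3 in RefSeq, from its description as a gene of the Z chromosome expressed in ovary, and NPTN carries the older name SDFR1.

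Libraries held between 20628640 and 40887647 counts on named genes, and the F5 libraries were the deeper set on average (32123891 against 26054366). Levels are in CPM, which are counts relative to the size of the library, scaled by TMM, a method that takes the typical gene as unchanged. The TMM factors were 1.09 ± 0.0483 for Pre-recruitment libraries and 0.923 ± 0.0404 for F5 libraries (SD, n = 6), so counts of called genes in each list and the members' changes are also given by library totals alone. Between the scalings the median log2 change of all 11195 tested genes moved from 0.02 to -0.21. All 15 smooth muscle markers were higher in F5 follicles (14 by library totals), with a summed level of 5748 to 12427 CPM before recruitment and 23186 to 43935 CPM in F5. Of 18 tested genes listed as oocyte markers 14 were lower (17 by library totals) and none was higher. Their sums were 1014 to 1251 and 490 to 1441 CPM, to which the egg coat genes ZP1, ZP2 and ZP3 gave the most. ZP3 averaged 587 CPM before recruitment and 815 CPM in F5 (not called), ZP1 194 and 128 CPM (not called), and ZP2 196 and 11.9 CPM (lower). The F5 sum was thus mostly ZP3 and does not stand for the other genes of that list. Which cells of the follicle made ZP1 and ZP3 was not measured, so the sum is not taken as a measure of the oocyte. Of 19 granulosa markers 9 were lower and 5 higher, against 11 lower and 3 higher by library totals, with sums of 3414 to 4371 and 2267 to 3236 CPM. No marker of these 3 lists in the table was at 0 in every library, and 4 oocyte markers (DDX4, LIN28A, LIN28B and NANOG) were at 0 in some. The part of these cell types in the members' levels was not tested.

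EMB stood among the 10 named genes with the most counts in each of the 12 libraries. Before recruitment its counts were 259297 in bird 5802, 253287 in 5810, 316505 in 5817, 236396 in 5826, 214416 in 5835 and 213755 in 5840. In F5 follicles they were 303781 in bird 5802, 290298 in 5810, 340708 in 5817, 303358 in 5826, 347672 in 5835 and 262546 in 5840. EMB thus took a share of 0.956% ± 0.0965 of named counts at the earlier stage and of 0.97% ± 0.125 in F5 (SD, n = 6). Its place by count was 4 to 8 in the Pre-recruitment libraries and 3 to 10 in the F5 libraries.

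In the order of mean CPM over the 12 libraries EMB was in place 6, at 9658 CPM. The 5 genes above it were the mitochondrial transcripts MT-CO1, COII and COX3, the fibrillar collagen COL3A1 and the cytoskeletal actin ACTB. Just above it lay ACTB at 9713 CPM, and just below it lay the mitochondrial ATP synthase subunit ATP6 at 8964 CPM and SPARC, a secreted matrix glycoprotein, at 8584 CPM. ACTB stood at 6172 ± 940 and 13255 ± 3048 CPM before recruitment and in F5, whereas EMB stood at 8835 ± 1037 and 10481 ± 950 CPM (SD, n = 6). Counts grow with transcript length, and no transcript lengths were used here, so this order is one of reads and not of molecules.

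**Figure D1:**
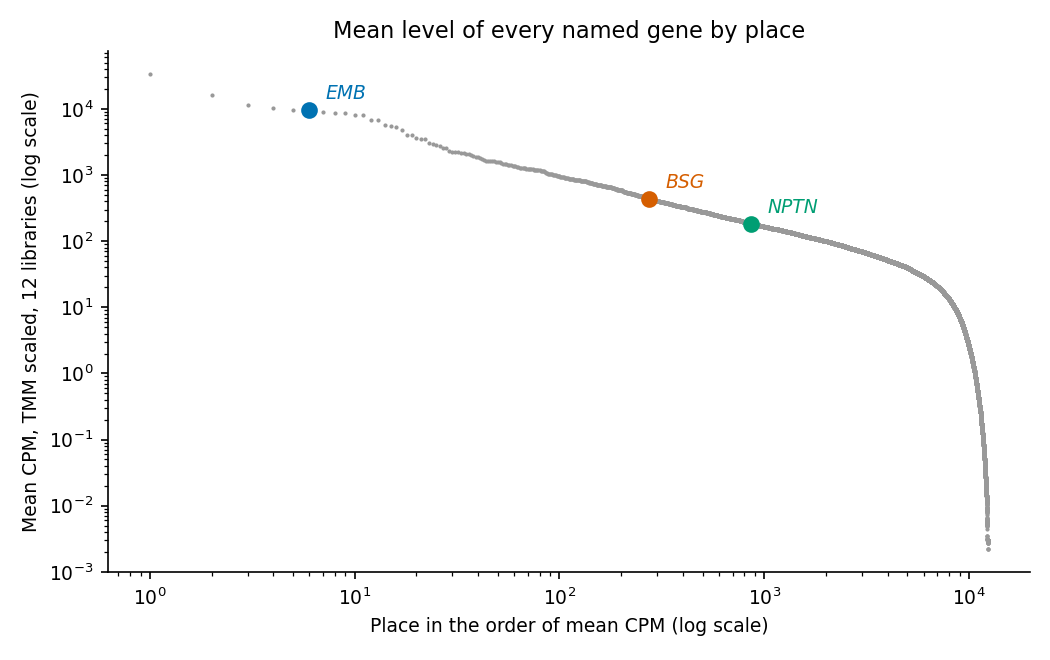
Each grey point is 1 named gene, with its place in the order of mean level on the x axis and its mean CPM over the 12 libraries on the y axis, both on log scales. EMB lies in place 6 at 9658 CPM, BSG in place 273 at 438 CPM and NPTN in place 860 at 184 CPM.

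BSG and NPTN were well expressed but far from the top of the order. BSG held place 273 at a mean of 438 CPM, beside PGRMC1, a progesterone-binding membrane protein (440 CPM), and CD74, the class II invariant chain (438 CPM). NPTN held place 860 at 184 CPM, between SVIL, an actin-binding protein, and PALM2AKAP2, both also at 184 CPM. The next genes out were ERP29 and CCNB1 for BSG and SSB and SBF1 for NPTN. Of the 3 members' summed counts EMB took 93.7% ± 0.578 before recruitment and 94% ± 0.845 in F5, BSG 4.16% ± 0.486 and 4.41% ± 0.678, and NPTN 2.13% ± 0.219 and 1.54% ± 0.18 (SD, n = 6). Among 35 other adhesion molecules of the immunoglobulin superfamily that were in the table, the highest mean level was that of THY1, a glycolipid-anchored surface protein, at 496 CPM.

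Between the stages EMB and BSG were higher and NPTN was lower in F5 follicles, all by less than 1.3-fold and all past an adjusted p of 0.05. That threshold was passed by 65.5% of all tested genes in either direction, 32.9% being higher and 32.6% lower, and the 3 of 3 members called are to be read beside these shares. Their changes were small for these data. The median size of the log2 change over all tested genes was 0.39, against 0.25 for EMB, 0.31 for BSG and -0.22 for NPTN. By library totals, 18.5% of genes were higher and 46.4% lower, and NPTN alone among the members passed.

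For EMB the level before recruitment was 9354 CPM in bird 5802, 8651 in 5810, 10448 in 5817, 7800 in 5826, 7675 in 5835 and 9080 in 5840. In F5 follicles it was 11426 CPM in bird 5802, 9814 in 5810, 11401 in 5817, 11175 in 5826, 9364 in 5835 and 9705 in 5840. The ranges overlapped, since the highest follicle before recruitment (bird 5817) exceeded 3 of the F5 follicles. EMB was nonetheless higher in the F5 follicle in 6 of 6 birds, by 1.07-fold in bird 5840 to 1.43-fold in bird 5826.

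The fitted rise of EMB was 1.19-fold (log2 change 0.25, SE 0.10, 95% interval 0.03 to 0.47), with an edgeR adjusted p of 0.0471, which is close to the threshold. Scaling by library totals left a log2 change of 0.02 (adjusted p = 0.869), with EMB higher in 4 of 6 birds. The call also ended without any of 8 libraries. These were the Pre-recruitment libraries of 5802 (edgeR adjusted p = 0.0705), 5810 (0.0977), 5826 (0.117), 5835 (0.141) and 5840 (0.0704) and the F5 libraries of 5802 (0.0951), 5817 (0.0917) and 5826 (0.0831). Without a whole bird it ended for 5802 (edgeR adjusted p = 0.108), 5810 (0.0682), 5826 (0.182), 5835 (0.0951) and 5840 (0.0614).

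The F5 levels of EMB fell into separate sets of 3, at 9364 to 9814 CPM in birds 5810, 5835 and 5840 and at 11175 to 11426 CPM in birds 5802, 5817 and 5826. By library totals the gap was wider, at 8427 to 8770 CPM against 10624 to 11036 CPM. The smooth muscle sum ran from 31379 to 43935 CPM in the first set and from 23186 to 25792 CPM in the second, and the TMM factors from 0.8587 to 0.9082 and from 0.9481 to 0.9682. With TMM scaling BSG was at 479 to 539 CPM in the first set and at 443 to 474 CPM in the second, which is narrowly apart. By library totals the sets overlapped for BSG, at 433 to 490 CPM and 429 to 450 CPM. The sums of the other marker lists overlapped between the sets. Fibroblast sums were 41103 to 49693 and 40291 to 52208 CPM, and granulosa sums 2976 to 3236 and 2267 to 3116 CPM. Oocyte sums overlapped only narrowly, at 1108 to 1441 CPM in the first set and 490 to 1111 CPM in the second. Before recruitment EMB was low both in bird 5826 (7800 CPM, smooth muscle sum 5748) and in bird 5835 (7675 CPM, smooth muscle sum 11799). The sets were drawn from the EMB values themselves and are not groups of the study. Smooth muscle was 1 of several lists read, so its separation of the sets tests nothing. What part the smooth muscle content plays was not tested.

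**Figure D2:**
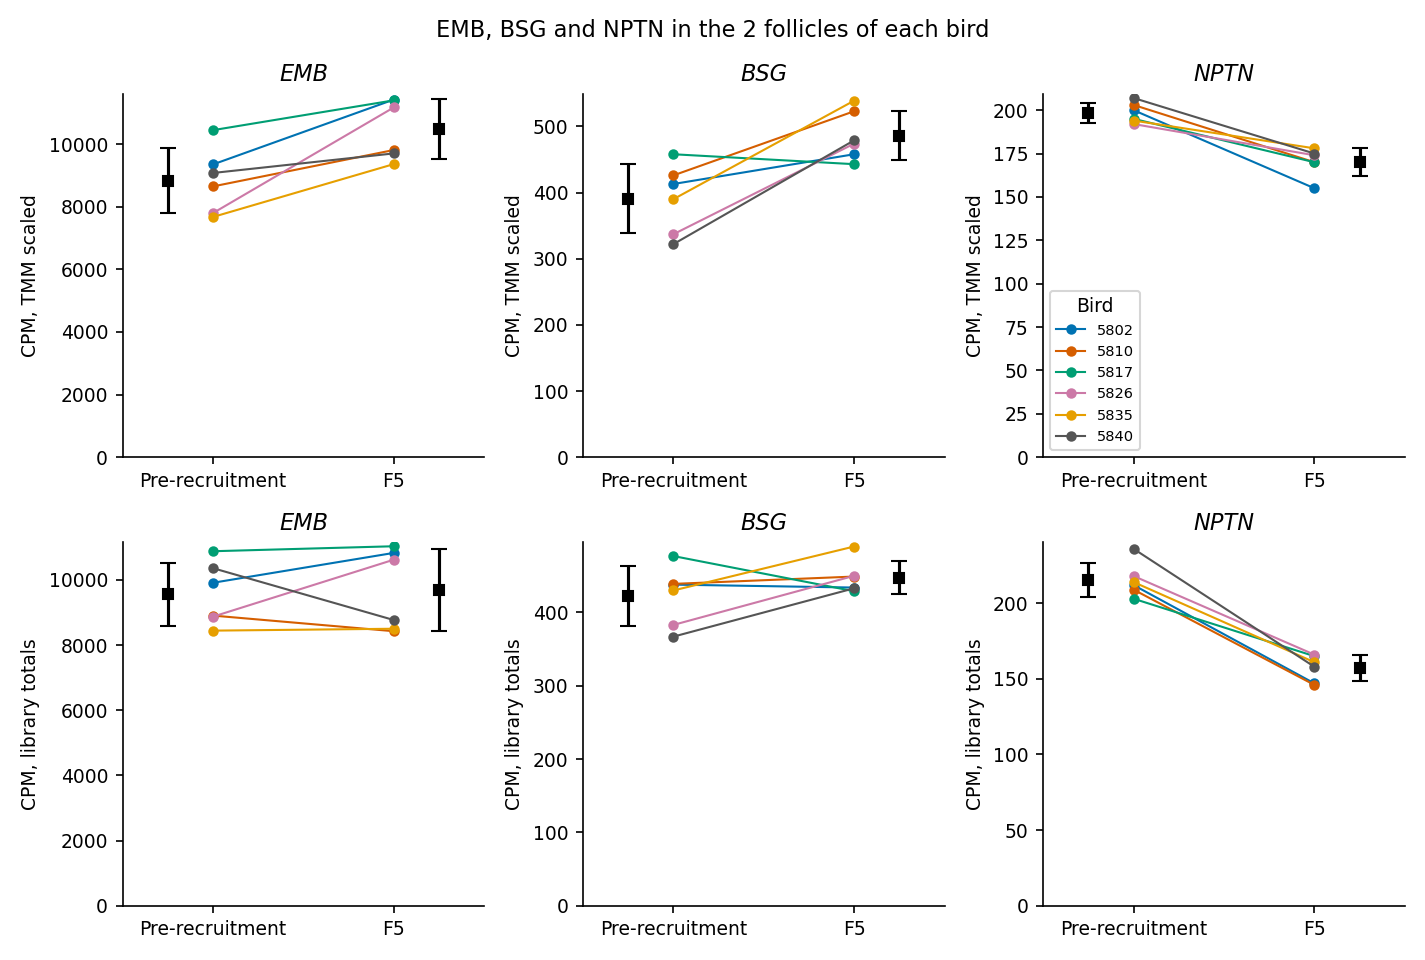
Each coloured line joins the Pre-recruitment and the F5 follicle of 1 bird, and black squares with bars give the mean and SD of 6 follicles; the y axis is CPM from 0, TMM-scaled in the upper row and by library totals in the lower row. EMB rises in 6 of 6 birds in the upper row and in 4 of 6 in the lower, BSG in 5 and in 4, and NPTN falls in 6 of 6 in both rows.

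BSG, the best known escort of the lactate carriers, was at 413 CPM before recruitment in bird 5802, 426 in 5810, 458 in 5817, 337 in 5826, 390 in 5835 and 322 in 5840. In F5 follicles it was at 458 CPM in bird 5802, 523 in 5810, 443 in 5817, 474 in 5826, 539 in 5835 and 479 in 5840. The ranges overlapped at bird 5817, the only bird in which the F5 follicle had less BSG. The low Pre-recruitment follicles of birds 5826 and 5840 reached the level of the others in F5. The means were 391 ± 52.8 and 486 ± 37.5 CPM (SD, n = 6).

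The fitted rise of BSG was 1.24-fold (log2 change 0.31, SE 0.09, 95% interval 0.12 to 0.51, edgeR adjusted p = 0.00759). No left-out library or bird ended it, with adjusted p-values from 0.00281 to 0.0346. By library totals the log2 change was 0.08 (adjusted p = 0.294), and BSG was higher in 4 of 6 birds. The direction of EMB and BSG is therefore one relative to the typical gene, and as a share of all named counts neither was shown to differ between the stages.

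With TMM scaling NPTN was the steadiest of the 3, and it was the only one whose stages did not overlap. Before recruitment it was at 200 CPM in bird 5802, 203 in 5810, 195 in 5817, 192 in 5826, 194 in 5835 and 207 in 5840. In F5 follicles it was at 155 CPM in bird 5802, 170 in 5810, 170 in 5817, 174 in 5826, 178 in 5835 and 175 in 5840. The highest F5 follicle (5835) lay under the lowest follicle before recruitment (5826). Stages that do not overlap, with F5 the lower, were seen in 22.8% of tested genes, and in 33.7% by library totals.

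The fitted fall of NPTN was 1.16-fold (log2 change -0.22, SE 0.05, 95% interval -0.32 to -0.12, edgeR adjusted p = 0.00107), lower in 6 of 6 birds. By library totals it was larger, with a log2 change of -0.45 (adjusted p = 5.28e-06). It passed the test without each library and each bird, with log2 changes from -0.26 to -0.19. With TMM scaling the spread of NPTN between birds was small, with a coefficient of variation of 2.98% before recruitment and 4.68% in F5. EMB had 11.7% and 9.07%, and BSG 13.5% and 7.71%. By library totals the values were 5.33% and 5.41% for NPTN, 10.1% and 12.9% for EMB and 9.54% and 5.02% for BSG. BSG was thus slightly steadier than NPTN in F5 by that scaling. The gene-wise biological coefficient of variation of the fit was 0.0734 for NPTN, lower than that of all but 1.15% of tested genes, against 0.12 for EMB, 0.119 for BSG and a median of 0.13.

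A ratio of 2 genes within a library does not depend on how libraries are scaled, and it asks whether the members changed alike. The count of BSG over that of NPTN was 2.07 in bird 5802, 2.1 in 5810, 2.35 in 5817, 1.76 in 5826, 2.01 in 5835 and 1.55 in 5840 before recruitment. In F5 follicles it was 2.95 in bird 5802, 3.07 in 5810, 2.6 in 5817, 2.72 in 5826, 3.03 in 5835 and 2.73 in 5840. Every F5 follicle lay above every Pre-recruitment follicle. How often other pairs of genes separate in this way was not counted, and 32.9% of tested genes were higher and 32.6% lower in F5. The log2 ratio differed by 0.54, or 1.45-fold (exact two-sided permutation p = 0.00216, the smallest that reassigning the 12 libraries to stages can give; 0.00649 adjusted over 3 ratios).

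EMB over NPTN was 46.9 in bird 5802, 42.6 in 5810, 53.7 in 5817, 40.7 in 5826, 39.5 in 5835 and 43.9 in 5840 before recruitment. In F5 follicles it was 73.6 in bird 5802, 57.6 in 5810, 67 in 5817, 64.1 in 5826, 52.7 in 5835 and 55.4 in 5840. It was higher in F5 in 6 of 6 birds, and the ranges overlapped only where the F5 follicle of 5835 lay under the Pre-recruitment follicle of 5817. The log2 ratio differed by 0.47, or 1.38-fold (exact two-sided permutation p = 0.00433, adjusted p = 0.00649 over 3 ratios). The exact test of sign changes within birds gave p = 0.0312 for each of these ratios, the smallest that 64 assignments allow (0.0469 adjusted over 3).

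EMB over BSG went both ways. It was 22.8 ± 3.02 before recruitment and 21.8 ± 3.46 in F5 (SD, n = 6), higher in F5 in 3 birds and lower in 3. The widest follicle was that of bird 5840 before recruitment, at 28.2, against 20.3 in its F5 follicle. The difference in the log2 ratio was -0.07 (exact two-sided permutation p = 0.563, also 0.563 adjusted over 3 ratios), and it became 0.01 without bird 5840. A difference between the changes of EMB and BSG was thus not detected, which does not show that they changed alike.

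**Figure D3:**
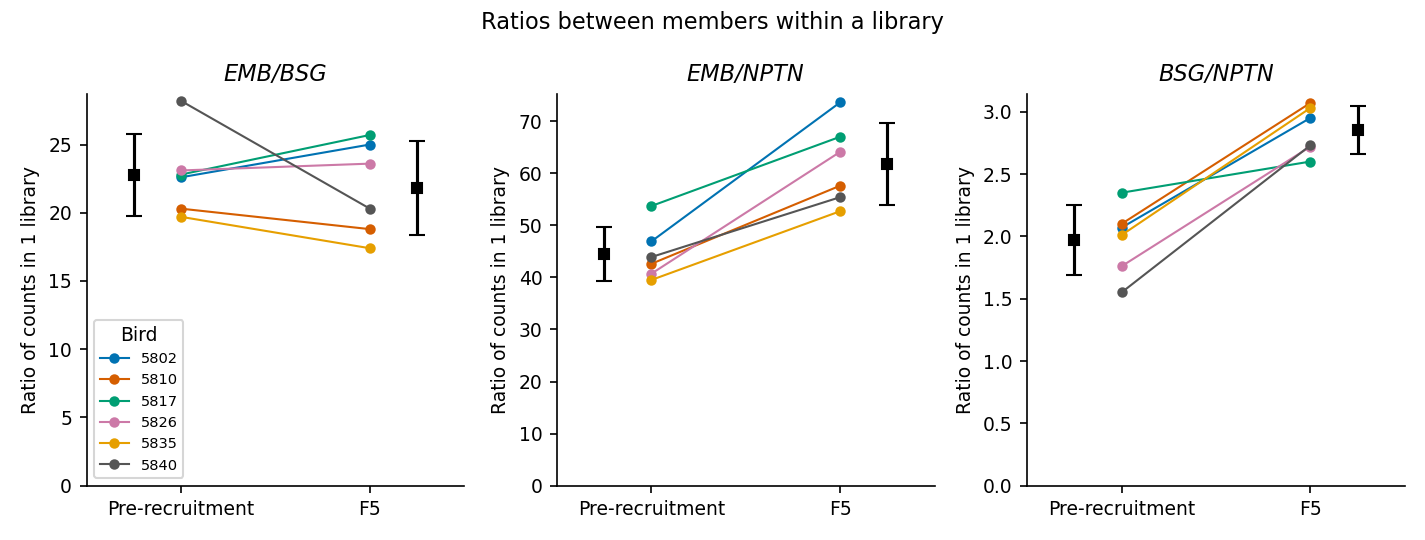
Each coloured line joins the follicles of 1 bird; the y axis is the ratio of the counts of 2 members within 1 library, from 0, and black squares with bars give the mean and SD of 6 follicles. EMB/NPTN and BSG/NPTN rise in 6 of 6 birds, from 44.5 to 61.7 and from 1.97 to 2.85 on average, and EMB/BSG rises in 3 and falls in 3.

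The carriers that basigin and embigin escort were led by SLC16A1, the common lactate and pyruvate carrier, with 62.3% ± 2.82 of all SLC16 counts before recruitment and 68.3% ± 3.44 in F5 (SD, n = 6). SLC16A1 was at 231 CPM in bird 5802, 263 in 5810, 212 in 5817, 212 in 5826, 216 in 5835 and 226 in 5840 before recruitment. In F5 it was at 224 CPM in bird 5802, 298 in 5810, 235 in 5817, 271 in 5826, 311 in 5835 and 256 in 5840. It was higher in 5 of 6 birds, and the ranges overlapped. Its fitted log2 change of 0.23 (SE 0.09, edgeR adjusted p = 0.0329) is of the size of those of EMB and BSG, and by library totals it was -0.01 (adjusted p = 0.934). The call also ended when 1 library was left out, for F5 libraries 5810 (edgeR adjusted p = 0.0713), 5826 (0.053) and 5835 (0.0794) and for Pre-recruitment libraries 5802 (0.0627), 5817 (0.0633), 5826 (0.0867), 5835 (0.089) and 5840 (0.067). Leaving out bird 5826 (edgeR adjusted p = 0.126), 5835 (0.142) or 5840 (0.0632) ended it too.

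Set against this carrier, the counts of BSG were 1.73 ± 0.253 times those of SLC16A1 before recruitment and 1.84 ± 0.121 times in F5, and those of EMB 39.2 ± 5.69 and 40.3 ± 8.38 times (SD, n = 6). Both ratios overlapped widely between the stages, with 1.42 to 2.16 and 1.73 to 2.05 for BSG and 32.9 to 49.2 and 30.1 to 51.1 for EMB. They compare reads and carry the lengths of the transcripts in them. No test was run on them.

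SLC16A7, the carrier that embigin is known to pair with in rat, was a minor transcript and lower in F5. Its means were 6.71 ± 1.23 CPM before recruitment and 4.25 ± 0.642 CPM in F5 (n = 6, SD), and the fitted log2 change was -0.66 with an SE of 0.14 (adjusted p = 0.00106, edgeR), lower in 6 of 6 birds. Its highest F5 follicle, at 5.19 CPM, lay under the lowest before recruitment, at 5.78, as was seen in 22.8% of tested genes. SLC16A3, the lactate carrier that basigin escorts in glycolytic cells, was scarcer still, at 1.41 ± 0.681 and 2.29 ± 0.411 CPM. Its log2 change of 0.69 (SE 0.29) had an edgeR adjusted p of 0.0496, and it missed the threshold by library totals (0.157) and with no filter on low counts (0.0509). It missed as well without each library but the F5 library of 5826 and the Pre-recruitment libraries of 5817 and 5835 (edgeR adjusted p from 0.0538 to 0.108 where it missed), and without every bird other than 5817 (0.0548 to 0.146). SLC16A8, known from the retina, had at most 7 counts in a library and was not tested.

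Of 14 SLC16 genes 13 were in the table and 11 were tested, of which 4 were higher, 2 lower and 5 not called, with a median log2 change of -0.26 beside 0.02 for all genes tested. The risers were SLC16A1, SLC16A3, SLC16A4 and SLC16A9, and the fallers SLC16A6 and SLC16A7. SLC16A6, a carrier of ketone bodies in zebrafish, had the largest change of those tested, with 12.3 ± 3.46 CPM before recruitment and 3.24 ± 1.15 CPM in F5, a log2 change of -1.92 with an SE of 0.27 (adjusted p = 2.73e-05, edgeR). SLC16A9, a carnitine carrier in human, rose from 18.1 ± 2.75 to 28.6 ± 5.78 CPM (log2 change 0.66, adjusted p = 6.61e-04), and both moved the same way in 6 of 6 birds. By library totals 1 was higher, SLC16A9, and 4 lower. The count of risers dropped to 1 on leaving out F5 library 5810 or 5835 or Pre-recruitment library 5802, 5826 or 5840, and to 2 on leaving out F5 library 5826 or 5840 or Pre-recruitment library 5835. It was 1 without bird 5826, 5835 or 5840, and the fallers became 4 without the F5 library of 5802. Across all genes tested 32.9% were higher and 32.6% lower, against 18.5% and 46.4% by library totals. SLC16A4 was named after its values were seen.

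**Figure D4:**
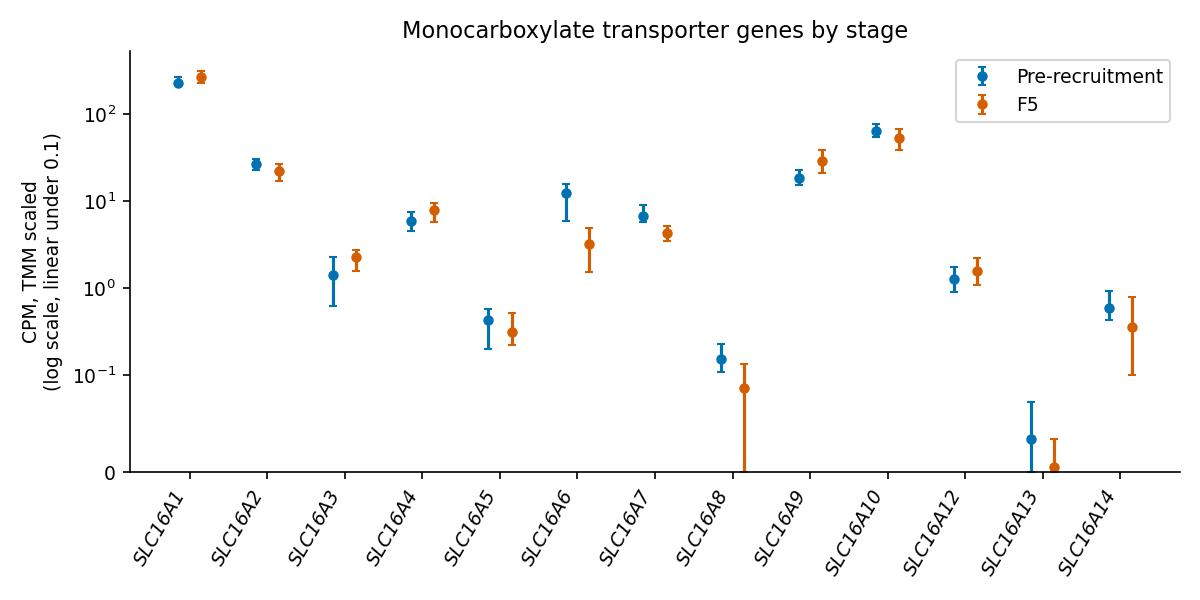
Points are mean TMM-scaled CPM of 6 follicles before recruitment (blue) and in F5 (orange), and bars run from the lowest to the highest follicle; the y axis is logarithmic and linear under 0.1. SLC16A1 stands above the other 12 genes in both stages, at 227 and 266 CPM, and SLC16A6 and SLC16A7 are lower in F5.

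Of the calcium pumps that take neuroplastin as a subunit, ATP2B1 and ATP2B4 were in the table, and ATP2B2 and ATP2B3 were not analysed here. ATP2B4 was at 214 CPM in bird 5802, 212 in 5810, 196 in 5817, 272 in 5826, 249 in 5835 and 259 in 5840 before recruitment, and at 156, 120, 180, 158, 124 and 137 CPM in the F5 follicles of the same birds. Every F5 follicle lay under every earlier one, as was seen in 22.8% of tested genes. The fitted log2 change was -0.68 (SE 0.11, edgeR adjusted p = 9.83e-05), a larger fall than that of NPTN in size, though the difference between these genes was not tested. ATP2B1 measured 53.1 ± 4.46 and 51.3 ± 2.9 CPM (log2 change -0.05, edgeR adjusted p = 0.506; -0.28 and 0.00659 by library totals). Counts of NPTN were 0.861 ± 0.116 times those of ATP2B4 before recruitment and 1.2 ± 0.214 times in F5, and 3.75 ± 0.325 and 3.33 ± 0.212 times those of ATP2B1 (SD, n = 6).

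XKR8, the scramblase that exposes phosphatidylserine on dying cells and leaves the endoplasmic reticulum only with basigin or neuroplastin in mammals, had the largest change among the partners always named. It was at 16.8 CPM in bird 5802, 15.7 in 5810, 17.8 in 5817, 23.3 in 5826, 19.8 in 5835 and 20.7 in 5840 before recruitment. In F5 it was at 4.85 CPM in bird 5802, 5.21 in 5810, 5.12 in 5817, 8.21 in 5826, 6.09 in 5835 and 6.58 in 5840. The stages did not come near each other, and 22.8% of tested genes likewise had F5 ranges wholly under the earlier ones. The log2 change was -1.66 (SE 0.14, edgeR adjusted p = 2.90e-07), and -1.90 by library totals. Counts of BSG were 21.2 ± 5.43 times those of XKR8 before recruitment and 83.4 ± 15.6 times in F5 (SD, n = 6). Of 10 tested nerve and glia markers 6 were lower too (7 by library totals) and none was higher, with summed levels of 156 to 230 and 35.7 to 63.9 CPM, beside the oocyte and granulosa markers given above, and their part in the XKR8 level was not tested.

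Other genes whose products are known to bind or act with these glycoproteins moved both ways. Of 22 listed, 20 were in the table and 19 tested, with 10 higher, 7 lower and 2 not called, and a median log2 change of 0.26 beside 0.02 for all genes. By library totals 7 were higher and 8 lower, and the median was 0.02 beside -0.21 for all genes. The shares of all tested genes were 32.9% higher and 32.6% lower, and 18.5% and 46.4% by library totals. FN1, fibronectin, to which embigin promotes adhesion in mouse, rose from 1504 ± 269 to 4685 ± 333 CPM, a log2 change of 1.64 with an SE of 0.12 (adjusted p = 1.02e-07, edgeR). The integrin beta subunit ITGB1 rose from 800 ± 93.4 to 1728 ± 202 CPM, while ITGA6, an alpha subunit of laminin receptors, fell from 88 ± 7.07 to 38 ± 4.87 CPM (log2 changes 1.11 and -1.21, edgeR adjusted p = 6.01e-07 and 6.91e-08). PPIA, the cyclophilin that binds basigin, rose from 1056 ± 120 to 1392 ± 149 CPM (log2 change 0.40, edgeR adjusted p = 0.00239; 0.0742 by library totals). FN1, ITGB1 and ITGA6 moved the same way in 6 of 6 birds and PPIA in 5. Smooth muscle and fibroblast markers were higher in the same F5 libraries, 7 of the 8 fibroblast genes under either scaling, with fibroblast sums of 21120 to 30837 and 40291 to 52208 CPM, and their part in FN1 and ITGB1 was not tested. SLC3A2 was not analysed here.

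**Figure D5:**
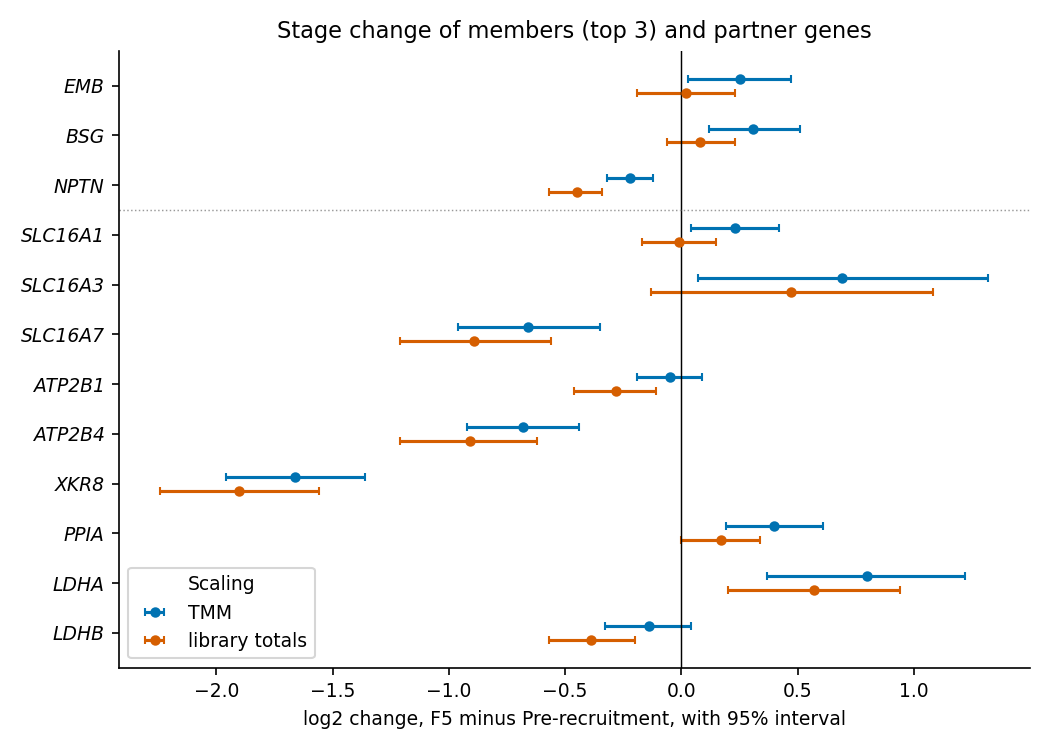
Points are log2 changes, F5 minus Pre-recruitment, of the 3 members and of 9 partner genes, with TMM scaling (blue) and library totals (orange), and bars are 95% intervals from the edgeR fit of 12 libraries. The intervals of EMB, BSG, SLC16A1, SLC16A3 and PPIA lie above 0 with TMM only and that of LDHA with both, while those of NPTN, SLC16A7, ATP2B4 and XKR8 lie under 0 with both and those of ATP2B1 and LDHB with library totals only.

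Enzymes that make and use the carried lactate and pyruvate were mixed by gene, while the summed level of the glycolysis list was lower in F5. With TMM scaling that sum ran from 7679 to 8534 CPM before recruitment and from 5876 to 7260 CPM in F5. Among 21 tested glycolysis genes 6 were higher, 7 lower and 8 not called (median log2 change 0.04), and by library totals 5 were higher and 11 lower. Without bird 5802 the fallers were 4. The shares over all tested genes were 32.9% higher and 32.6% lower (18.5% and 46.4% by library totals). LDHA, the lactate dehydrogenase subunit typical of lactate-making tissue, rose from 85.7 ± 28.7 to 149 ± 27.7 CPM, a log2 change of 0.80 with an SE of 0.20 (adjusted p = 0.00281, edgeR), higher in 5 of 6 birds, with overlapping ranges. LDHB, the subunit typical of lactate-using tissue, measured 488 ± 43.6 and 442 ± 49.8 CPM (log2 change -0.14, edgeR adjusted p = 0.159; -0.39 and 0.00138 by library totals). HK2, a minor hexokinase gene here, rose from 40.7 ± 6.29 to 76.9 ± 11.3 CPM, and ENO2, a scarce enolase gene, from 1.18 ± 0.21 to 3.26 ± 0.498 CPM. The pyruvate kinase PKLR fell from 1334 ± 131 to 739 ± 49.4 CPM, with edgeR adjusted p-values of HK2, ENO2 and PKLR from 7.36e-07 to 1.01e-05. The more abundant hexokinase HK1 fell from 287 ± 15.2 to 220 ± 9.55 CPM (edgeR adjusted p = 2.43e-05). The more abundant enolase ENO1 fell from 1619 ± 78.6 to 1113 ± 81 CPM (edgeR adjusted p = 1.41e-05). HK1 and ENO1 were named after their values were seen. Whether PKLR shares reads with PKM, which was not analysed here, was not measured.

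Of 11 tested genes for the entry of pyruvate into mitochondria, 2 were higher, 5 lower and 4 not called (median log2 change -0.05; none higher and 8 lower by library totals). Beside these counts, 32.9% of all tested genes were higher and 32.6% lower (18.5% and 46.4% by library totals). The kinases PDK1 and PDK4, which switch off pyruvate dehydrogenase, fell from 200 ± 19.7 to 120 ± 6.63 CPM and from 80.8 ± 26.2 to 21.7 ± 9.26 CPM (edgeR adjusted p = 6.41e-07 and 4.36e-05). Pyruvate carboxylase, PC, fell from 14.5 ± 1.4 to 9.26 ± 0.564 CPM, and PDHB, a subunit of pyruvate dehydrogenase, rose from 95.1 ± 4.27 to 114 ± 6.22 CPM (edgeR adjusted p = 1.35e-05 and 4.05e-04). The rise of PDHB was not held by library totals (log2 change 0.03, adjusted p = 0.528).

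Among 35 other adhesion molecules of the immunoglobulin superfamily, 12 were higher, 11 lower and 12 not called, with a median log2 change of 0.09. By library totals 8 were higher and 12 lower, and the median turned to -0.14. Of all tested genes 32.9% were higher and 32.6% lower (18.5% and 46.4% by library totals), with a median of 0.02 (-0.21). IGSF11, a homophilic adhesion molecule, fell from 37.7 ± 5.2 to 10.1 ± 2.35 CPM, and NECTIN3, a nectin of adherens junctions, from 44.3 ± 5.56 to 20.3 ± 2.33 CPM (edgeR adjusted p = 1.62e-07 and 3.22e-07). THY1 rose from 286 ± 61.1 to 707 ± 68.8 CPM and the endothelial PECAM1 from 113 ± 9.98 to 189 ± 23.9 CPM (edgeR adjusted p = 1.16e-06 and 5.14e-06). These 4 were named for the smallest adjusted p-values of the 35, a choice that favours large changes. Each had a larger fitted change in size than any of the 3 members, with no test of that difference. Endothelial markers, among which PECAM1 counts, were higher for 6 of 11 and lower for 2, a balance that turned by library totals (2 higher and 5 lower), with sums of 671 to 785 and 806 to 883 CPM.

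Pooled over both stages, the members' levels were not closely correlated across libraries. After the stage mean was taken from each log2 level, EMB and BSG correlated across the 12 libraries at r = 0.09, EMB and NPTN at -0.20 and BSG and NPTN at 0.12, as descriptions of libraries that share depth, scaling and bird. These r pool the stages, with TMM scaling, and a low r over 12 libraries does not show that the members vary independently. An r within 1 stage was not computed. In F5 follicles EMB and BSG lay on opposite sides of their stage means in birds 5802, 5810, 5817, 5826 and 5835, and on the same side in 5840. Before recruitment they lay on the same side in 5802, 5817 and 5826 and on opposite sides in 5810, 5835 and 5840. Each member had its own closest genes among the 5570 genes whose mean log2 CPM reached 5. For EMB these were HMGN4, a chromatin protein (r = 0.95), the calcium-dependent kinase CAMK2D (0.89), the mitochondrial complex assembly factor ACAD9 (0.86) and MDFIC (0.85). For BSG they were SPARC (0.97), the proteasome subunit PSMA1 (0.96), the secreted chemoattractant RARRES2 (0.96) and the ribosomal protein RPL9 (0.95). For NPTN they were the pseudokinase TRIB2 (0.86), the glycosyltransferase LARGE2 (0.85), MCCC1, an enzyme of leucine breakdown (0.83), and DCUN1D1 (0.82). These are the highest of many correlations over 12 points.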

How the data were processed

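The authors deposited an estimated count for each gene symbol and library, without normalisation. The labels tie this table to kallisto, which divides reads of near-identical genes by estimation. The submitters' processing notes list kallisto 0.44.0, bcl2fastq 2.19, DESeq2 1.38.3 and DESeq 0.99.484 and the builds GRCg6a and galGal6, with no role. Libraries were poly-A selected and read as paired 100 bp reads, per the labels' protocols. The step from transcripts to genes is not described in these sources. Values were whole, and rounding changed 0. A row with no name, with 9.02% ± 0.515 of counts before recruitment and 6.6% ± 0.215 in F5 (SD, n = 6), was left out.

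Counts were fitted with edgeR 4.0.16 in R 4.3.3 (filterByExpr by stage with minimum count 10, TMM, robust quasi-likelihood, stage as the only term, two-sided, Benjamini-Hochberg over 11195 genes at 0.05). The standard error is the log2 change divided by the root of F. Log2 CPM used a prior count of 2. Exact two-sided permutations of the 12 libraries tested the 3 log2 ratios. DESeq2 1.42.0, other scalings, no filter, the bird block and left-out libraries were alternatives. The code was tested on simulated data. Same-bird libraries come from the same hen, per the labels, and their deviations from stage means correlated at 0.129 to 0.388 across genes, against -0.298 to 0.302 between birds.

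The members and gene lists were chosen with earlier results of these data known. Named are the members, a set of known partners, the 4 smallest adjusted p-values of each list (1 glycolysis gene is not reported here), the 4 closest genes by deviation and the 2 neighbours on either side in level. RefSeq's table for GRCg7b gave older names only. Marker lists for theca, erythrocytes and leukocytes were also read, with 3, 1 and 1 genes higher and 3, 0 and 1 lower of 9, 5 and 15 tested (2, 0 and 1 higher and 4, 0 and 3 lower by library totals). Depth limits only genes with few counts, and no interval covers more than these samples.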

Additional observations from a re-analysis of the deposited data

Results flagged for a closer look

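Among 66 sets of 6 values checked, 5 held a follicle far from the others, and chance alone picks about 1 set in 20. NPTN in the F5 follicle of bird 5802 was at 155 CPM, against 170 to 178 CPM in the others, and its fall passed the test without that library (edgeR adjusted p = 0.00284). Before recruitment SLC16A7 was at 9.09 CPM in bird 5802 (5.78 to 6.93 in the others), SLC16A1 at 263 CPM in bird 5810 (212 to 231) and ATP2B1 at 44.6 CPM in bird 5817 (53.6 to 57.7). PPIA in the F5 follicle of bird 5817 was at 1108 CPM, against 1381 to 1532 CPM.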

How the results depend on the processing

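NPTN kept its fall and its call under all 23 alternatives (log2 change -0.45 to -0.19). BSG missed the threshold only by library totals (0.08), and EMB by library totals (0.02) and in 13 of 18 runs that left out a library or bird, whose values ran from 0.17 to 0.30. Library totals turned SLC16A1 to -0.01 and changed the counts of SLC16 genes to 1 higher and 4 lower, of calcium pumps to 2 lower, of glycolysis genes to 11 lower, of pyruvate entry genes to 0 higher and 8 lower, and of all genes to 2071 higher. With libraries or birds left out, SLC16 genes numbered 1 to 4 higher and 2 to 4 lower, and glycolysis genes 4 to 8 lower. The log2 ratio of EMB to BSG ran from -0.12 to 0.01 in such runs and turned positive without bird 5840. The replicate block by bird changed no call, with log2 changes of 0.25 for EMB, 0.32 for BSG and -0.22 for NPTN. The ratios of EMB and of BSG to NPTN passed in every run made. The cause of these dependences was not tested.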
